A study of Mus musculus with 830 samples.

Results

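Fibroblast growth factors (FGFs) and bone morphogenetic proteins (BMPs) are secreted signals, and the genes described here are those of mouse FGF and BMP signalling in single cells of the early endoderm and gut. The genes were chosen by symbol alone from the 26313 rows of the read count table, and 54 rows were found. They comprise every numbered Fgf and Bmp gene, every symbol that begins with Fgfr or Bmpr, the BMP antagonists Nog and Chrd, the feedback genes Spry1, Spry2, Spry4 and Dusp6, and the target genes Id1 to Id4. By role they are 18 secreted FGF ligands, 4 intracellular FGF-like proteins (Fgf11 to Fgf14), 5 FGF receptors counting the decoy-like Fgfrl1, 4 feedback genes, 10 BMP ligands, 2 antagonists, 3 BMP receptors and 4 Id genes. A further 4 rows matched by symbol but are neither ligands nor receptors of these families. Bmp1 is a protease of the matrix, Bmp2k a kinase, and Fgfr1op and Fgfr1op2 were named after fusions with the FGF receptor gene. Fgf6, Fgf16 and Bmp15 had no read in any cell.

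The cells come from mouse embryos of a C57BL/6XC3H cross at 15, 18, 21, 24 or 27 somites, and each of the 830 samples is 1 cell profiled by Smart-seq3xpress, which reads full-length transcripts of cells sorted into plates. Ngn3Cre cells (Ngn3-Cre; Ai6, 333 cells) carry a Cre recombinase driven from Neurog3 and a reporter that stays on in the descendants of cells in which the Cre was active. HZ cells (Ngn3-GFP/+, 326 cells) have 1 Neurog3 allele that carries GFP, HM cells (Ngn3-GFP/GFP, 171 cells) have GFP on both alleles, and cells without a reporter were not analysed here. Cells were labelled for EpCAM, a surface protein of epithelia, before sorting; the sources used here do not give a gate on the reporter itself.

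FGF ligands bind receptor tyrosine kinases (Fgfr1 to Fgfr4) together with heparan sulfate and raise ERK activity, which in turn switches on feedback inhibitors such as the Sprouty genes and the phosphatase Dusp6. BMP ligands bind complexes of type I receptors (Bmpr1a, Bmpr1b) and the type II receptor Bmpr2, which phosphorylate SMAD proteins, and the Id genes are among the most direct SMAD targets. Id proteins lack a DNA-binding region and tie up the partners of basic helix-loop-helix factors, the family to which Neurog3 belongs. In the foregut, FGF signals from heart and BMP signals from the septum transversum mesenchyme are known for steering endoderm between liver and pancreas, and FGF10 from pancreatic mesenchyme sustains progenitors that express Fgfr2.

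Since no label ties a cell to an embryo, reads were summed over the cells of a reporter and stage and single cells were not treated as replicates. This gave 14 pools, and the 11 pools of at least 10 cells held 8299225 to 70763553 reads, beside 1400 to 2525083 reads in single cells. Differences between pools of 1 reporter therefore include stage, and P-values measure the spread of a difference between these pools. Neurog3 was at 6.35 to 11.6 CPM (a gene's reads scaled to a common library total, with TMM factors for pools and sets) in HM pools, 79.0 to 134 in HZ and 145 to 543 in Ngn3Cre. The endoderm markers Epcam, Foxa2 and Cdh1 were read in all 11 pools, at 38.3 CPM or more. The sum of 10 endocrine markers (Neurod1, Pax4, Pax6, Isl1, Fev, Insm1, Cryba2, Pcsk2, Chga and Chgb) was 15.5 to 367 CPM in HM, 407 to 2307 in HZ and 3480 to 4099 in Ngn3Cre, so these groups differ widely in endocrine content, and the pools are not of like cells.

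Per transcript length, Id1, Id2, Id3 and Spry2 were the most abundant members, and of the secreted FGFs only Fgf8 passed a mean of 5 TPM. In the authors' TPM values (reads per gene length, scaled to a fixed sum per cell), averaged over cells and then over the 11 pools, Id2 stood at 481 ± 358 (SD, n = 11 pools), Id3 at 211 ± 135, Spry2 at 184 ± 88.5 and Id1 at 88.3 ± 41.9. Among receptors the order was Fgfr2 (24.5 ± 16.4 TPM), Bmpr1a (20.5 ± 8.08), Fgfr4 (18.4 ± 9.38), Fgfr1 (13.0 ± 6.37), Fgfrl1 (11.9 ± 5.67), Bmpr2 (6.05 ± 3.08), Fgfr3 (2.04 ± 2.25) and Bmpr1b (0.649 ± 0.470), and each of these differed from its neighbour in the order by less than the larger SD of the pair, apart from Bmpr2, which lay more than that below Fgfrl1 and above Fgfr3. The most abundant ligands were Bmp4 (22.9 ± 30.5 TPM), Fgf8 (10.5 ± 12.1), Bmp7 (7.24 ± 4.44) and Bmp6 (6.54 ± 4.49), where the spread between pools was about as large as the mean or larger for the first pair. Fgf3, at 4.25 ± 9.01 TPM, was the next secreted FGF, followed by Fgf10 at 3.71 ± 7.46. Chrd, which binds BMPs outside the cell, stood at 3.35 ± 2.00 TPM and Nog, another such antagonist, at 2.80 ± 6.16.

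The promoters of 6 members whose levels differed between cell classes are shown here, 3 that were lower in endocrine-marker cells (Id2, Id3, Fgfr2) and 3 that were higher (Chrd, Bmp6, Fgf14); the values follow. Each is the 250 bases before a RefSeq transcript start on GRCm38.p6, printed 5′ to 3′ on the gene's strand. Capitals mark GGCGCC, a GC-rich element bound by SMAD proteins (its own reverse complement), or CAGATG read on either strand, where CATCTG is the reverse, an E-box bound by NEUROG and NEUROD factors. No window shown holds both motifs.
Id2, chr12:25096093-25096342, minus strand: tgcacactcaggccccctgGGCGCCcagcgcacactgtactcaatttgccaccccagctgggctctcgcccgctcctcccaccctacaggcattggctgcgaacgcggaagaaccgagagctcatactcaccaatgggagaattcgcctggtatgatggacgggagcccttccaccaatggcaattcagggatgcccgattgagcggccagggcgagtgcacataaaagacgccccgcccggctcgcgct
Id3, chr4:136143572-136143821, plus strand: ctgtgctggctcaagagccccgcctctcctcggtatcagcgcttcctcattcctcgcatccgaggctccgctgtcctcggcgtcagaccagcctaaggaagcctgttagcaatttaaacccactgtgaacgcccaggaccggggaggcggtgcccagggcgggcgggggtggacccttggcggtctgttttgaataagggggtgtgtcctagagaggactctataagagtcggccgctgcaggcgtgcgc
Fgfr2, chr7:130266809-130267058, minus strand: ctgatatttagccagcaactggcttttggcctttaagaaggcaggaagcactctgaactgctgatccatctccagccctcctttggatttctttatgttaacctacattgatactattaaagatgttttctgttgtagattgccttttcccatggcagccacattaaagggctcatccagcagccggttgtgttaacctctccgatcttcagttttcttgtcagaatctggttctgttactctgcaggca
Chrd, chr16:20732877-20733126, plus strand: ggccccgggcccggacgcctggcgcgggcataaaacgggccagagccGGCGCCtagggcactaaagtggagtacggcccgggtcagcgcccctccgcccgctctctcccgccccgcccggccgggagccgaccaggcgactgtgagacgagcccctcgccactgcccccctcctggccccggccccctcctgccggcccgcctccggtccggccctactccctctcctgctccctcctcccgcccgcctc
Bmp6, chr13:38345466-38345715, plus strand: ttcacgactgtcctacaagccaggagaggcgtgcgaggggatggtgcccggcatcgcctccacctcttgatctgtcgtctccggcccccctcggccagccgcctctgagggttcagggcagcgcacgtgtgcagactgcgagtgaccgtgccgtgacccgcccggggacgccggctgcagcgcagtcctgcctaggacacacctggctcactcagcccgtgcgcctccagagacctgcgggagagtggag
Fgf14, chr14:124192547-124192796, minus strand: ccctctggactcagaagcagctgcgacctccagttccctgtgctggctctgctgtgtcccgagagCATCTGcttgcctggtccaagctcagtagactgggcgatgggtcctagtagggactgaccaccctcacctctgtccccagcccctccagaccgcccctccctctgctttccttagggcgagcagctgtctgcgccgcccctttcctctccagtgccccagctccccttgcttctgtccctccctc
GGCGCC begins 231 bases before the start of Id2 and 203 bases before that of Chrd, and CATCTG begins 185 bases before the start of Fgf14. Of 32851 windows of this length in the RefSeq table, 9.59% hold GGCGCC and 14.4% the E-box. Of the 13 members called between the cell classes, 10 had an entry in the table, all but Bmp7, Fgfr1 and Id1. Outside the 6 shown, both windows of Fgfr3 hold GGCGCC and 1 of the 3 windows of Bmpr1b holds CATCTG.

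To see in which cells the genes were read, each HZ and Ngn3Cre pool was split by the 10 endocrine markers. Endocrine-marker cells had at least 5 of the 10 at 50 CPM or more, and marker-low cells at most 2, both without cells that held 3 or more markers of another type (neural, mesenchyme, hepatic, endothelium or blood). No member is a marker. The series held 334 endocrine-marker and 263 marker-low cells in all, with 107 cells between them and 126 of other types, and only 2 HM cells were in the endocrine-marker class. The cut is not a natural gap, since 24 cells had 2 markers, 49 had 3, 58 had 4 and 50 had 5. Only 3 pools had at least 10 cells in both sets: HZ at 21 somites (54 endocrine-marker and 47 marker-low cells), HZ at 24 somites (43 and 19) and Ngn3Cre at 24 somites (91 and 13). Reads were summed over each set, and the sets of a pool were compared with each other by edgeR's quasi-likelihood test, with 2 residual degrees of freedom.

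FGF receptors, a BMP receptor and Id genes were lower in the endocrine-marker cells, while Bmp6, Chrd and Fgf14 were higher. Of 34 members tested, 10 fell and 3 rose, beside 17.0% of all 14772 genes tested that passed, 9.29% lower and 7.68% higher. The median log2 fold change was -1.21 over the members tested and 0.11 over all genes. Within the groups, 3 of 5 FGF receptors, 3 of 4 Id genes, 1 of 3 BMP receptors and 1 of 4 feedback genes fell, none of these rising, and 2 of 6 BMP ligands tested fell while 1 rose. None of the 4 secreted FGFs with enough reads to be tested passed in edgeR, none had an unadjusted p under 0.05, and DESeq2 called none. With the classes cut at 4 of 10 markers, an alternative added after seeing the data, edgeR called Fgf10 and Fgf3, both lower in the endocrine-marker cells. The 34 are not all members, since the other 20 had too few reads in these sets.

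**Figure D1:**
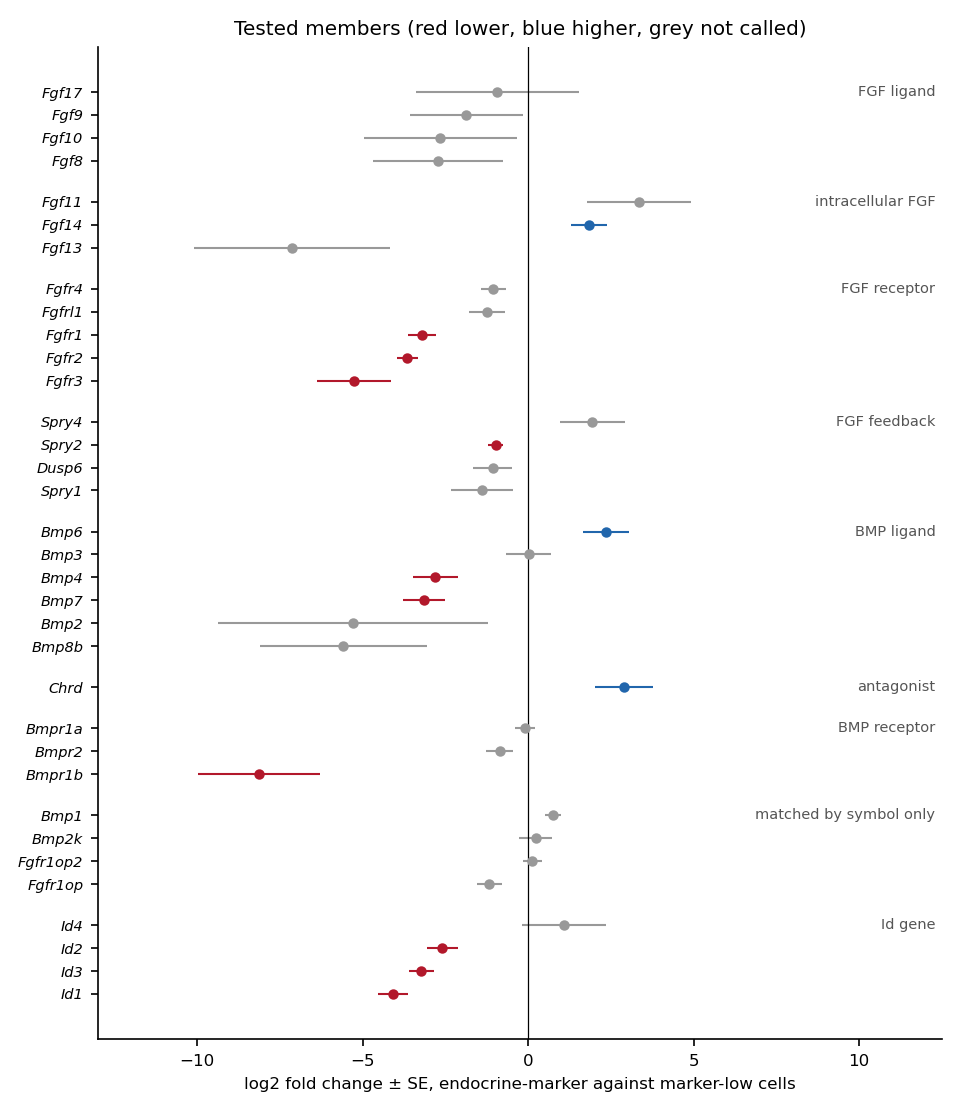
Log2 fold change with its SE for each of the 34 members tested between endocrine-marker and marker-low cells of 3 pools, by role (red lower, blue higher, grey not past an adjusted p of 0.05). Fgfr1, Fgfr2, Id1, Id2 and Id3 lie left of zero with short bars, and Fgfr3 with a longer bar of 1.13. The secreted FGFs have bars of 1.70 or more on either side.

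Fgfr2, the receptor for FGF10 in its epithelial splice form, lies on chromosome 7. It was at 112, 133 and 127 CPM in the marker-low sets of HZ at 21, HZ at 24 and Ngn3Cre at 24 somites, and at 13.0, 9.81 and 7.72 CPM in the endocrine-marker sets of the same pools. The sets do not overlap, and the 3 marker-low values lie within a narrow range. Its log2 fold change was -3.65 ± 0.32 (SE; edgeR adjusted p = 6.90e-05), which was the smallest p among members. Fgfr1 (chromosome 8, 25513654 to 25575718, plus strand, GRCm38) was at 51.0, 62.6 and 76.3 CPM in marker-low sets and 9.59, 5.49 and 6.03 CPM in endocrine-marker sets, again without overlap. Its log2 fold change was -3.21 ± 0.41 (adjusted p = 5.78e-04). In the marker-low set of Ngn3Cre at 24 somites, 1 cell gave 53.4% of the Fgfr1 reads. Fgfr3 (chromosome 5, 33721674 to 33737068, plus strand) was at 3.50, 7.51 and 28.9 CPM in marker-low and 0, 0.392 and 0.914 CPM in endocrine-marker sets (log2 fold change -5.26 ± 1.13, adjusted p = 0.00984). Its marker-low reads came from only 6, 6 and 3 cells, and 1 cell gave 61.9% of those of Ngn3Cre.

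Fgfr4 and Fgfrl1 did not pass. Fgfr4 was at 49.5, 65.1 and 69.2 CPM in marker-low and 44.5, 30.1 and 19.4 CPM in endocrine-marker sets (log2 fold change -1.05 ± 0.38, adjusted p = 0.0906). The sets do not overlap for Fgfr4, but the difference was small at 21 somites. Fgfrl1, which binds FGF and has no kinase, had a log2 fold change of -1.24 ± 0.54 (adjusted p = 0.153). Some alternatives did call them. Fgfr4 passed with DESeq2, without the filter on low counts and without the HZ pool of 21 somites. Fgfrl1 passed in cells of at least 100000 reads and 2000 genes and without the Ngn3Cre pool of 24 somites.

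BMP receptors were uneven. Bmpr1a, the type I receptor read in 682 of the 830 cells, was at 68.8, 55.9 and 47.4 CPM in marker-low and 45.1, 58.2 and 59.8 CPM in endocrine-marker sets. These overlap, and the log2 fold change was -0.09 ± 0.30 (adjusted p = 0.889). Bmpr2 had -0.86 ± 0.40 (adjusted p = 0.186), from 39.2, 74.0 and 34.8 CPM down to 30.2, 19.9 and 28.0 CPM. The other type I receptor, Bmpr1b (chromosome 3, 141837136 to 142169425, minus strand), passed with 174 reads in the 3 marker-low sets and 2 in the endocrine-marker sets, or 162-fold fewer relative to all reads (95% exact interval 44.1 to 1347, counting error only; adjusted p = 0.0130). Most of its marker-low reads in each pool came from 1 cell (64.9%, 53.8% and 64.8%), and the call was lost without the HZ pool of 21 or of 24 somites.

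Id1, Id2 and Id3 fell together. Id1 (chromosome 2, 152736251 to 152737410, plus strand) was at 91.2, 108 and 202 CPM in marker-low sets and at 4.39, 15.7 and 6.21 CPM in endocrine-marker sets. Its log2 fold change of -4.08 ± 0.45 (adjusted p = 2.47e-04) was the largest of the 3. Id3 (chromosome 4, 136143497 to 136145755, plus strand) was nearly even across marker-low sets, at 303, 311 and 291 CPM, and was at 13.4, 56.7 and 42.9 CPM in endocrine-marker sets (-3.23 ± 0.38, adjusted p = 3.36e-04). Id2 (chromosome 12, 25093799 to 25097140, minus strand) went from 628, 674 and 353 CPM to 34.7, 116 and 167 CPM (-2.60 ± 0.47, adjusted p = 0.00409). None of these 3 genes overlapped between the sets, and for Id2 the Ngn3Cre pool had the smallest step. Id4 was read at 0.393 to 6.59 CPM over the 6 sets and did not pass (1.08 ± 1.26, adjusted p = 0.628).

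Of the FGF feedback genes, Spry2 had a log2 fold change of -0.98 ± 0.22 (adjusted p = 0.0124), the smallest called change among members. It was at 238, 346 and 501 CPM in marker-low sets and still at 118, 253 and 187 CPM in endocrine-marker sets. The ranges overlap across pools, and within each pool the endocrine-marker set was lower. Dusp6 (-1.07 ± 0.59, adjusted p = 0.262), Spry1 (-1.40 ± 0.93, adjusted p = 0.363) and Spry4 (1.94 ± 0.99, adjusted p = 0.226) did not pass. Dusp6, the ERK phosphatase, was at 16.4, 21.9 and 22.8 CPM in marker-low and 4.54, 23.8 and 8.61 CPM in endocrine-marker sets, which overlap.

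**Figure D2:**
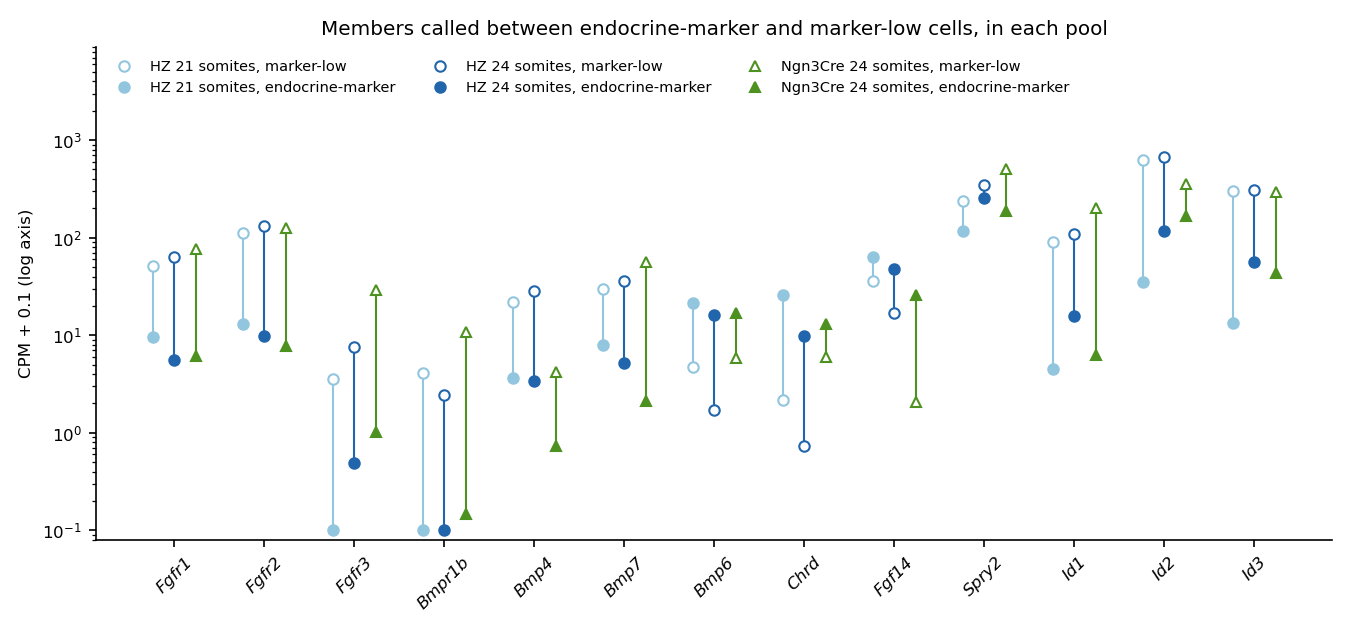
CPM plus 0.1 on a log axis for the 13 members called between the classes, with 1 line per pool joining the marker-low set (open) to the endocrine-marker set (filled). All 3 lines run down for Fgfr1, Fgfr2, Fgfr3, Bmpr1b, Bmp4, Bmp7, Spry2, Id1, Id2 and Id3 and up for Bmp6, Chrd and Fgf14.

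Among BMP ligands, Bmp7 fell and Bmp6 rose. Bmp7 (chromosome 2, 172868012 to 172940321, minus strand) was at 30.0, 35.7 and 56.4 CPM in marker-low sets and 7.91, 5.10 and 2.03 CPM in endocrine-marker sets (-3.15 ± 0.63, adjusted p = 0.00700), with no overlap. Bmp6 (chromosome 13, 38345107 to 38500302, plus strand) was at 4.64, 1.61 and 5.70 CPM in marker-low sets and 21.5, 16.2 and 17.0 CPM in endocrine-marker sets (2.35 ± 0.69, adjusted p = 0.0430), also with no overlap. Its endocrine-marker reads were spread over 30, 24 and 39 cells, and no cell gave more than 19.8% of those of a pool. Bmp4 (chromosome 14, 46383520 to 46390669, minus strand) passed at -2.81 ± 0.68 (adjusted p = 0.0175), but 1 cell gave 88.1% of its reads in the marker-low set of HZ at 21 somites, 49.2% in HZ at 24 and 100% in Ngn3Cre at 24. Without the HZ pool of 21 or of 24 somites the call of Bmp4 was lost, and with markers counted from 10 CPM and the classes cut at 4 markers its value turned to 4.48 (adjusted p = 0.259). Bmp2, Bmp3 and Bmp8b did not pass, and Bmp5, Bmp8a, Bmp10 and Bmp15 had too few reads to be tested, at 2.70 CPM or less in each set.

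The antagonist Chrd (chromosome 16, 20733127 to 20742384, plus strand), which holds BMPs away from their receptors, rose from 2.06, 0.626 and 5.90 CPM in marker-low sets to 25.5, 9.73 and 13.0 CPM in endocrine-marker sets (2.90 ± 0.88, adjusted p = 0.0471). The endocrine-marker reads came from 27, 13 and 33 cells, with at most 19.4% from 1 cell, while the few marker-low reads of Ngn3Cre came almost wholly (93.3%) from 1 cell. Fgf14 (chromosome 14, 123977907 to 124677127, minus strand), an intracellular partner of sodium channels and not a secreted signal, was at 35.7, 16.9 and 1.97 CPM in marker-low and 63.0, 47.3 and 25.9 CPM in endocrine-marker sets (1.84 ± 0.54, adjusted p = 0.0422). Its sets overlap across pools, though each pool moved the same way. Of the other intracellular FGFs, Fgf11 (3.34 ± 1.57, adjusted p = 0.188) and Fgf13 (115 reads in marker-low sets and 0 in endocrine-marker sets, adjusted p = 0.152) did not pass, and Fgf12 was not tested. The calls of Bmp6 and Chrd were lost without either HZ pool, and that of Fgf14 without the HZ pool of 24 somites. Nog was not tested, since it had 14 reads in the marker-low set of HZ at 24 somites and 0 in the other 5 sets.

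Marker-low sets had more reads of the 8 mesenchyme markers, 45.8 to 94.0 CPM in sum against 6.48 to 11.9 CPM in endocrine-marker sets, with no marker at 0 in either class. They also had more of the 8 endoderm epithelium markers (2295 to 2708 CPM against 1123 to 1659) and of the 8 pancreatic progenitor markers (533 to 719 against 364 to 502). Hepatic (424 to 549 CPM against 434 to 1866) and neural markers (10.9 to 48.6 against 12.1 to 57.3) overlapped. The part of these in the differences was not tested. In sums over cells, fewer cells that use a gene and fewer reads per cell cannot be told apart.

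Binned by the number of endocrine markers, the levels changed in steps rather than at the class cut alone. In the 704 cells not of another type, Fgfr2 was at 138 CPM in the 176 cells with no marker, 86.4 in the 87 with 1 or 2, 48.9 in the 107 with 3 or 4, 13.4 in the 95 with 5 or 6, 11.3 in the 161 with 7 or 8 and 9.31 in the 78 with 9 or 10. Fgfr1 went from 63.4 through 45.2, 26.4, 7.96 and 5.64 to 3.76 CPM. Id3 stood at 283 and 284 CPM in the lowest bins and at 40.5, 29.9, 16.4 and 45.7 CPM in the others, and Id2 at 787, 366, 86.2, 123, 58.9 and 139 CPM over the 6 bins, so neither fell further in order from 3 or 4 markers on. Bmp6 was higher from 3 or 4 markers on (1.76, 6.37 and 15.6 CPM in the first 3 bins, then 18.5, 18.5 and 15.2), and Chrd from 5 or 6 markers on (3.97, 5.10, 8.81, 13.3, 17.1 and 14.6 CPM). The bins mix reporters: 100 of the 176 cells with no marker were HM, and 6 of the 107 with 3 or 4. These values are CPM over all reads of a bin, without TMM factors, and a description without a test.

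**Figure D3:**
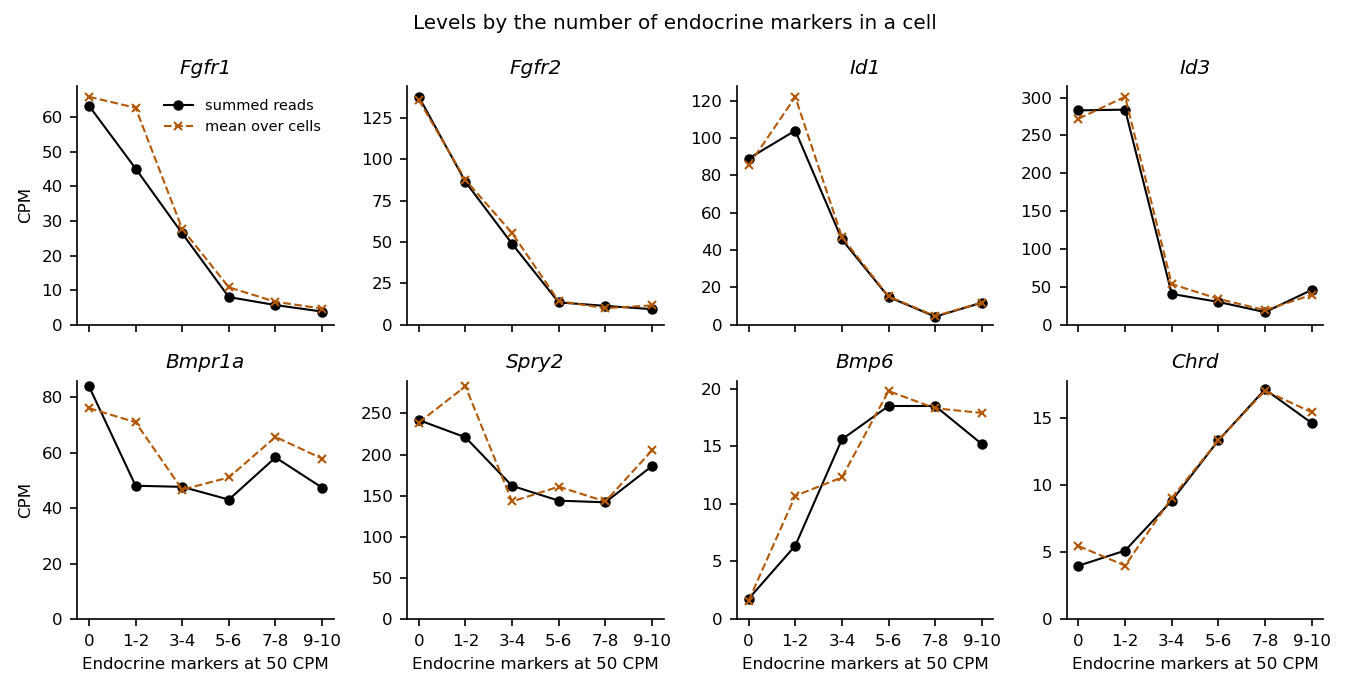
CPM of 8 members by the number of the 10 endocrine markers at 50 CPM in a cell (x axis, 6 bins), from summed reads (black) and as the mean over cells (orange). Fgfr1, Fgfr2, Id1 and Id3 are lower from 3 or more markers on, Bmp6 and Chrd are higher, and Bmpr1a and Spry2 change less.

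Other genes of both pathways were taken from lists beside the members. Of 33 tested FGF pathway genes out of 36 listed, 2 rose and 7 fell, beside 7.68% of all genes that rose and 9.29% that fell, with a median of -0.30. The heparan sulfate carriers Sdc4 (-5.61 ± 0.24, adjusted p = 8.46e-07) and Sdc1 (-2.95 ± 0.40) and the FGFR-binding membrane protein Flrt2 (-4.89 ± 0.52) fell, Sdc4 from 419 to 690 CPM in marker-low sets to 8.95 to 15.6 CPM. The ETS factor Etv1, of a family known as FGF targets, rose from 0.393 to 2.87 CPM up to 51.8 to 141 CPM (6.06 ± 0.71, adjusted p = 3.43e-04). Of 27 tested BMP pathway genes out of 44 listed, 1 rose and 4 fell, a share close to the 17.0% of all genes that passed, with a median of -0.20. The secreted antagonist Cer1 had 1370 reads in endocrine-marker sets (13.2 to 33.2 CPM) and 0 in marker-low sets, at least 245-fold higher against 3 reads over those sets (adjusted p = 9.18e-04). The repulsive guidance molecule Rgma, a BMP co-receptor (-5.78 ± 1.27, adjusted p = 0.0110), the transcription factor Atoh8 (-4.52 ± 1.00, adjusted p = 0.0115) and the secreted Fstl1 (-1.06 ± 0.26, adjusted p = 0.0197) fell.

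Across whole pools no member passed between reporters. In HM against HZ, 0 of 49 tested members were called, beside 1.47% of 18420 genes. Of the members 11 had an unadjusted p under 0.05, beside 2469 of the 18420 genes. DESeq2 called 6 members (Id2 higher, and Bmp4, Bmp6, Chrd, Fgf14 and Spry4 lower) and limma on the mean CPM over cells called Fgf14. The median log2 fold change was -0.24 over the tested members and -0.09 over all genes. The HM pool of 15 somites has no HZ partner and carries no weight in this fit.

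Fgf14 and the feedback gene Spry4 were nearest to the threshold. Fgf14 was at 10.6, 19.3, 6.80 and 5.87 CPM in HM pools of 15, 18, 21 and 24 somites and at 29.5, 39.6, 29.3 and 16.7 CPM in HZ pools of 18, 21, 24 and 27 somites. At each of the 3 shared stages HM was lower, and the log2 fold change was -1.82 ± 0.43 (edgeR adjusted p = 0.0877). Spry4 was at 14.4, 0.352, 0.140 and 2.00 CPM in HM and 4.33, 6.95, 6.54 and 4.32 CPM in HZ (-3.32 ± 0.82, adjusted p = 0.0995), lower in HM at each shared stage and highest in the HM pool of 15 somites, which has no weight here. Id2 was at 320, 561, 759 and 918 CPM in HM and 413, 348, 387 and 119 CPM in HZ (1.08 ± 0.29, adjusted p = 0.132), higher in HM at each shared stage. Chrd was at 7.79, 4.04, 0.895 and 2.39 CPM in HM and 17.7, 9.53, 4.33 and 4.16 CPM in HZ (-2.03 ± 0.59, adjusted p = 0.161), and Bmp6 at 1.04, 1.93, 5.15 and 1.12 CPM against 4.21, 12.7, 8.78 and 9.60 CPM (-1.82 ± 0.55, adjusted p = 0.179). Bmp4 had -1.41 ± 0.41 (adjusted p = 0.161). The groups overlap for Fgf14, Spry4, Id2, Chrd, Bmp6 and Bmp4.

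Every HM pool was above every HZ pool for 4 of 49 members (2.63% of all genes), namely Bmp7, Bmp8b, Bmpr1a and Id3, and below for 0 (4.93%). For Bmp7, 1 cell with markers of another type gave 72.9% of the reads in HM at 18 somites. For Bmp8b, 1 cell gave 95.2% of the reads in HM at 15 somites and 1 cell 97.1% at 18. The sum of the 8 endoderm epithelium markers was likewise separate between the reporters, at 2202 to 2708 CPM in HM and 706 to 2132 CPM in HZ. Its genes differed, since Foxa2 was lower in every HM pool (49.4 to 106 CPM against 107 to 163). Epcam (555 to 787 against 219 to 674 CPM) and Cdh1 (118 to 206 against 44.5 to 144 CPM) overlapped. Sums of the 8 hepatic (249 to 16179 against 1119 to 9994 CPM) and mesenchyme markers (9.05 to 232 against 21.3 to 149 CPM) overlapped. So did those of the 8 pancreatic progenitor markers (267 to 444 against 155 to 565 CPM). No marker of these lists was at 0. Their part in the whole-pool differences was not tested. Bmpr1a was at 67.7, 79.8, 79.7 and 84.0 CPM in HM and 52.1, 53.4, 58.9 and 58.9 CPM in HZ, a narrow band in each, with a log2 fold change of 0.48 ± 0.19 that did not pass (adjusted p = 0.302). Id3 was at 325, 269, 243 and 240 CPM in HM and 203, 148, 152 and 41.8 CPM in HZ (0.73 ± 0.29, adjusted p = 0.308). Fgfr2 was at 71.8, 52.8, 105 and 154 CPM in HM and 71.0, 61.5, 68.9 and 19.6 CPM in HZ, with HM lower at 18 somites and higher at 21 and 24 (0.65 ± 0.33, adjusted p = 0.439). Fgfr1 (0.46 ± 0.31), Id1 (0.36 ± 0.32) and Spry2 (-0.23 ± 0.29) were also within the spread between pools. The lists beside the members held 1 call each in this comparison, both lower in HM: Etv1 (-3.94 ± 0.51, adjusted p = 0.00582) and Cer1 (-8.80 ± 0.94, adjusted p = 0.00213), which had 22 reads in the HM pool of 15 somites and 2 in the other 3 HM pools together, against 1101 in HZ pools.

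**Figure D4:**
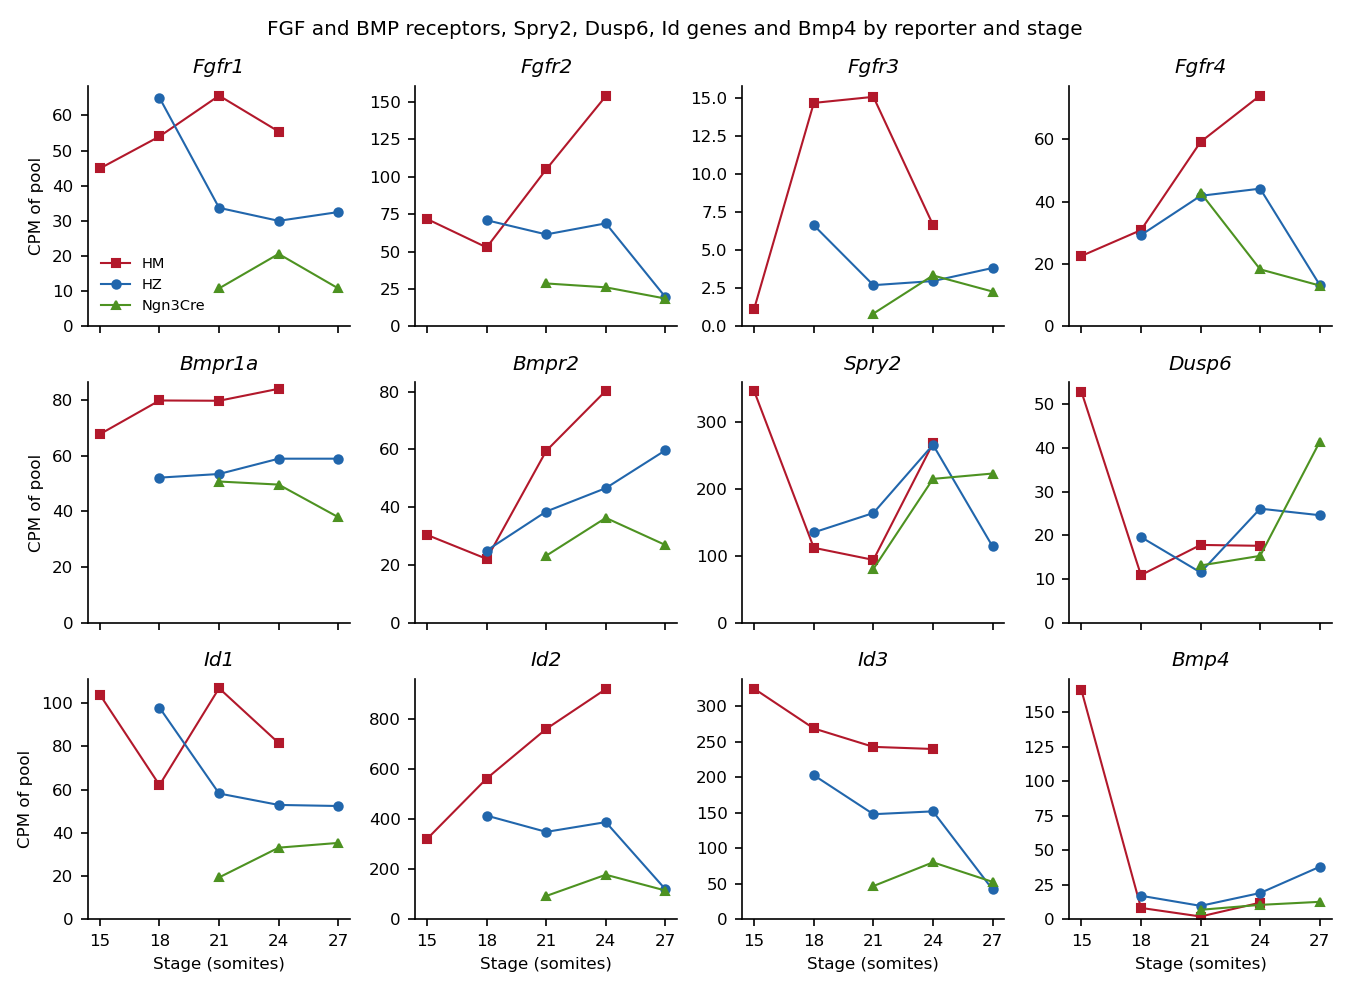
CPM of 12 members in each pool (y axis) against stage in somites (x axis) for HM (red squares), HZ (blue circles) and Ngn3Cre (green triangles); 1 point is 1 pool. Bmpr1a lies higher in every HM pool than in any HZ pool, Id2 in HM lies above HZ at 18, 21 and 24 somites, and the HM pool of 15 somites stands apart for Bmp4 and Dusp6.

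Because HM pools held almost no endocrine-marker cells, HM and HZ were also compared in marker-low cells alone. None of 43 tested members passed, beside 0.171% of 15826 genes. An unadjusted p under 0.05 was found for 5 members, beside 801 of the 15826 genes. DESeq2 called 3 members (Nog higher, Bmp4 and Spry2 lower) and limma on the mean CPM over cells 0. Fgfr2 was then at 65.0, 69.1, 133 and 176 CPM in HM at 15, 18, 21 and 24 somites and 85.4, 109 and 130 CPM in HZ at 18, 21 and 24, where the TMM factors differ slightly from those of the class comparison (0.15 ± 0.20, adjusted p = 0.999). Id3 was at 331, 283, 242 and 290 CPM in HM and 239, 295 and 303 CPM in HZ (-0.03 ± 0.15), so the separation seen in whole pools was not present. Bmp7 was not separate here either, at 22.5, 12.9, 19.7 and 45.1 CPM in HM and 22.8, 29.3 and 34.8 CPM in HZ (-0.33 ± 0.37). Fgfr1 (0.14 ± 0.25), Id1 (-0.24 ± 0.19) and Chrd (-0.15 ± 1.10) were also near zero, although for Chrd the SE leaves room for large differences. Fgf14 was lower in HM at each shared stage here too, at 25.3, 10.2 and 6.49 CPM against 41.6, 34.8 and 16.5 CPM (-1.27 ± 0.45, adjusted p = 0.762). Id2 remained on the higher side in HM, at 506, 710 and 993 CPM against 367, 612 and 657 CPM at the shared stages (0.43 ± 0.12, adjusted p = 0.345). Bmpr1a had 0.54 ± 0.22 (adjusted p = 0.896), close to its whole-pool value.

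The lowest p in marker-low cells was that of Bmp4, at 9.43, 1.88 and 10.7 CPM in HM and 24.1, 21.3 and 27.3 CPM in HZ at 18, 21 and 24 somites (-2.01 ± 0.45, adjusted p = 0.130). At 15 somites, a stage with no HZ pool tested, the HM value was 177 CPM. Spry2 was at 133, 134 and 245 CPM in HM and 207, 232 and 338 CPM in HZ (-0.62 ± 0.14, adjusted p = 0.143). HM was lower than HZ at each of these 3 stages for both genes, but for Bmp4 1 cell gave 88.1% of the HZ reads at 21 somites. Without the HM pool of 18 somites, or without the HZ pool of 18 somites, both passed. The whole-pool and marker-low comparisons share cells, and both share HZ cells with the comparison of classes, so their values are given side by side and not set against each other in a test.

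**Figure D5:**
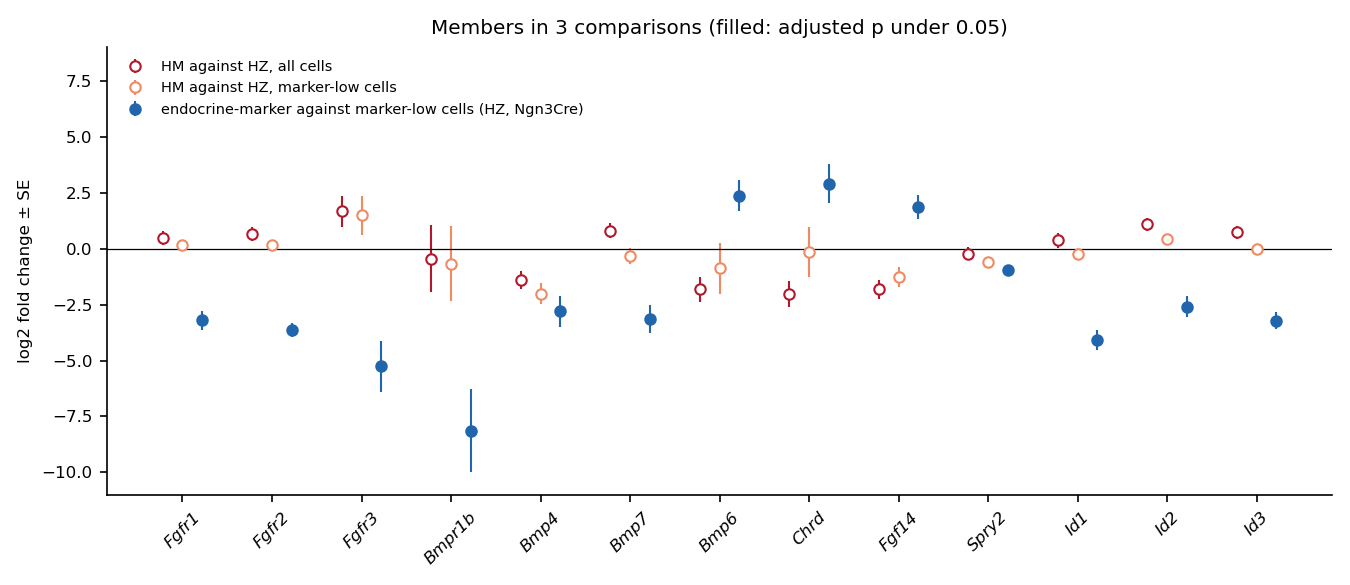
Log2 fold change with its SE for the 13 members called between cell classes (blue), beside their values in HM against HZ over all cells (red) and over marker-low cells (orange); filled points have an adjusted p under 0.05. Id3, Fgfr2 and Chrd lie nearer to zero in marker-low cells than over all cells, and Bmp4 lies below zero in all 3.

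Ngn3Cre pools, which held the most endocrine-marker cells, were compared with HZ at 21, 24 and 27 somites. Their endoderm epithelium sum, 927 to 1398 CPM, lay within the HZ range, and their neural sum reached 1196 CPM, beside at most 62.8 CPM in HZ. Of 49 members 0 passed, beside 0.337% of 18420 genes. An unadjusted p under 0.05 was found for 12 members, beside 1938 of the 18420 genes. DESeq2 called 5 members, all lower (Fgf15, Fgfr1, Fgfrl1, Id1 and Id2), and limma on the mean CPM over cells called 0. Fgfr1 was at 10.8, 20.6 and 10.8 CPM in Ngn3Cre and 33.7, 30.0 and 32.5 CPM in HZ at these stages (-1.34 ± 0.32, edgeR adjusted p = 0.131). Id1 was at 19.3, 33.1 and 35.3 CPM against 58.2, 52.9 and 52.4 CPM (-1.07 ± 0.34, adjusted p = 0.250). All Ngn3Cre pools lay below all HZ pools for 6 of 49 members (Bmpr1a, Bmpr1b, Fgf17, Fgfr1, Fgfrl1 and Id1; 7.78% of all genes) and above for 1 (Fgf18; 8.32%). Fgfr2 (-1.01 ± 0.36), Id2 (-1.12 ± 0.32), Id3 (-0.79 ± 0.32) and Bmpr2 (-0.82 ± 0.25) had adjusted p from 0.198 to 0.407. Chrd (1.08 ± 0.55), Bmp6 (0.65 ± 0.50) and Fgf14 (-0.02 ± 0.40) were within 2 SE of zero.

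No member passed the test for a slope with stage. For the slope per somite common to the reporters, 0 of 45 tested members and 0% of 16478 genes passed, while 9 members and 1377 genes had an unadjusted p under 0.05. DESeq2 called 3 members (Bmpr2, Chrd and Fgf3) and limma on the mean CPM over cells called 0. Fgf3 had the smallest p, with a slope of 0.75 ± 0.16 on the log2 scale per somite (edgeR adjusted p = 0.260), and was at 43.6 CPM in HZ at 27 somites and at 0 to 2.95 CPM in the other 10 pools. Bmpr2 had a slope of 0.14 ± 0.04 (adjusted p = 0.295), with HZ at 25.0, 38.5, 46.6 and 59.7 CPM at 18, 21, 24 and 27 somites and HM at 30.4, 22.1, 59.5 and 80.3 CPM at 15 to 24 somites. The Ngn3Cre pools of Bmpr2, at 23.2, 36.3 and 26.9 CPM at 21, 24 and 27 somites, showed no steady rise. Chrd had -0.22 ± 0.06 (adjusted p = 0.318), with HZ at 17.7, 9.53, 4.33 and 4.16 CPM and Ngn3Cre at 18.7, 9.51 and 9.43 CPM. The receptors Bmpr1a (0.01 ± 0.02), Fgfr2 (-0.01 ± 0.06) and Fgfr4 (-0.00 ± 0.07) had slopes near zero. In HZ, Fgfr4 was nonetheless uneven, at 29.3, 41.9 and 44.2 CPM and then 13.3 CPM at 27 somites.

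Secreted FGFs were read in few cells, and their pool values often rested on 1 of them. Fgf8, which patterns many early tissues, was read in 99 of 830 cells, Fgf9 in 85, Fgf17 in 73, Fgf10 in 59 and Fgf3 in 48, and none of the other 13 in more than 31. In the HM pool of 18 somites 1 cell gave 97.2% of the Fgf8 reads (106 of 109), and in HZ at 21 somites 1 cell gave all 113 reads of Fgf15 and all 116 of Fgf4. The 9.83 CPM of Fgf20 in Ngn3Cre at 27 somites came to 99.6% from 1 cell. Nog likewise had all of its 188 reads in HM at 18 somites from 1 cell. Genes other than Fgf3, Fgf8, Fgf10 and Nog in this paragraph were named after their values were seen.

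Fgf10, Fgf3 and Fgf8 were high together in the HZ pool of 27 somites. Fgf10, known as a mesenchymal ligand of Fgfr2, was at 0.991, 2.54, 3.78 and 72.2 CPM in HZ at 18, 21, 24 and 27 somites, and at 0 to 9.95 CPM in the other 7 pools. Fgf3 was at 0.330, 2.23, 0.224 and 43.6 CPM and Fgf8 at 7.64, 3.74, 0.320 and 32.8 CPM in the same HZ pools. No other pool reached these values for any of the 3 genes. The pool of 27 somites held 26 cells, of which 6 had both Fgf3 and Fgf10 at 50 CPM or more, and these 6 gave 92.1% of its Fgf3, 69.1% of its Fgf10 and 77.6% of its Fgf8 reads.

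Over the whole series 8 cells had both Fgf3 and Fgf10 at 50 CPM or more: the 6 of HZ at 27 somites, 1 of HM at 24 somites and 1 of Ngn3Cre at 24 somites. None of the 8 had any of the 8 endoderm epithelium markers at 50 CPM, Epcam included, whereas 17 of the other 20 cells of the HZ pool had Epcam at that level and their median was 4 of the 8 markers. All 8 had Neurod1 and Insm1 at 50 CPM or more and 7 had Isl1, but none had Pax4 or Fev, which are markers of endocrine cells in the pancreas and gut. Chga was at that level in 3 of the 6 HZ cells and in the HM cell. Of the 10 endocrine markers, the HZ cells had 2 to 4, the Ngn3Cre cell 3 and the HM cell 5. The HM cell thus belongs to the endocrine-marker class. They were chosen by their Fgf3 and Fgf10 values, so the coincidence is a description, and no cell type is assigned to them. None of the 8 is in the sets compared between cell classes at the reported cut.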

How the data were processed

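Single-cell libraries of 830 cells were analysed, each cell a sample. The authors deposited whole-number read counts per gene and cell, and TPM values for the same cells, which are reads scaled by gene length and to a fixed sum per cell. The submitters' processing notes name HISAT2 2.1.0, Trimmomatic 0.39 and FastQC 0.11.9, with GRCm38 and mm10 as builds. Not given in the sources used here are the read counter, its annotation, filters on cells, and the use of strand or molecular identifiers, so reads of overlapping genes cannot be separated.

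The members, gene lists and tests were chosen with earlier results of these data known. Counts were summed over the cells of a reporter and stage, and pools of at least 10 cells were tested with edgeR 4.0.16 in R 4.3.3 (quasi-likelihood, TMM scaling, default filter on low counts, all genes, Benjamini-Hochberg adjustment, threshold 0.05). The left-out pools were HM at 27 somites (4 cells), HZ at 15 (5 cells) and Ngn3Cre at 18 (3 cells). Reporter contrasts had reporter and stage as factors, the slope had reporter and somite number, and the class comparison had pool and class. An SE is the log2 fold change divided by the square root of F. CPM of a pool or set is a gene's reads over its total times its TMM factor, so the same reads differ slightly in CPM between comparisons; CPM of single cells and of marker-number bins, and ratios of reads, use all reads without that factor. Positions are from GENCODE vM21 and promoters from RefSeq on GRCm38.p6.

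Classes were planned with markers counted from 10 CPM. This left 1 pool for the class comparison and no residual degrees of freedom for HM against HZ in marker-low cells, so a level of 50 CPM was used instead, chosen from the numbers of cells and not from gene values. Ttr and globins did not count as markers of another type. No doublet caller was run. Named members are those past the threshold in any fit and the 3 of each role with the highest mean TPM; of the other pathway genes, up to 4 per fit with the smallest p, taken in each of the 2 lists. Alternatives were DESeq2 1.42.0, RLE scaling, no filter on counts, limma 3.58.1 on log2 of the mean CPM over cells + 1, cells of at least 100000 reads and 2000 genes, other minimum cell numbers, only shared stages, other marker levels and cuts, other cell types kept, and each pool left out. Totals per cell and pool set the counting error, and intervals cover that error only.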

Additional observations from a re-analysis of the deposited data

Results flagged for a closer look

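In the 49 member and reporter groups of 4 pools that reached 10 CPM in some pool, 10 held 1 pool far from the other 3 by Dixon's gap test, where chance alone flags about 1 in 20 groups that are not selected. That rate does not apply to these 49, since groups entered by their highest pool, which favours a gap. The pools of a reporter also differ in stage, and pool and stage cannot be told apart. In HM, the pool of 15 somites was high for Bmp4 (166 CPM, next 11.9), Dusp6 (52.9 CPM, next 17.8) and Spry4 (14.4 CPM, next 2.00). Bmp4 there was read in 9 of 16 cells, and 1 cell gave 28.4% of its reads. Fgf1 was high in HM at 21 somites (10.3 CPM, next 0.673), and Fgfrl1 was low in HM at 18 somites (7.38 CPM, next 27.0). The 370 Fgf1 reads came from 8 cells, with 0 in the 39 marker-low cells of that pool. Its other 15 cells held markers of another type. In HZ, the pool of 27 somites was high for Fgf10 (72.2 CPM, next 3.78) and Fgf3 (43.6 CPM, next 2.23). The HZ pool of 18 somites was high for Fgf17 (10.4 CPM, next 1.37), of which 1 cell gave 81.3%, and for Fgfr1 (65.0 CPM, next 33.7) and Id1 (98.0 CPM, next 58.2). That pool had 2 endocrine-marker cells and 15 of other types among 61, beside 54 and 18 of 149 at 21 somites. In marker-low cells alone, HZ at 18, 21 and 24 somites had Id1 at 66.2, 88.9 and 105 CPM. Fgfr1 was at 61.1, 49.7 and 61.0 CPM there. The part of the cell classes in the whole-pool Fgfr1 and Id1 levels was not tested.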

How the results depend on the processing

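Between cell classes, Bmp7, Fgfr1, Fgfr2, Id1, Id3 and Spry2 passed under all 11 alternatives run. Fgfr3 (adjusted p = 0.0679) and Id2 (0.0519) each lost the call under 1, Chrd under 3, Bmpr1b under 4, and Bmp6 and Fgf14 under 5, while Bmp4 kept it under 5 of the 11. The number of members called higher (3 as reported) was 5 with DESeq2, 0 with markers from 10 CPM cut at 4 of 10, 1 with the cut at 4 added after seeing the data, and 0 to 3 with a pool left out. Under the 10 CPM cut at 4, Bmp4 turned to 4.48. Calls were also gained: DESeq2 called 19 members between classes, the 13 reported and Bmp1, Bmp2, Bmp8b, Fgf11, Fgfr1op and Fgfr4. Without the Ngn3Cre pool of 24 somites 17 were called, Bmpr2 and Fgfrl1 among them. Where 0 members were called as reported, DESeq2 called 1 higher and 5 lower in HM against HZ, 5 lower in Ngn3Cre against HZ, 2 higher and 1 lower with stage, and 1 higher and 2 lower in marker-low cells. Limma gave 1 lower in HM against HZ and the unfiltered fit 2 lower in marker-low cells. With a pool left out, lower calls ranged from 0 to 1 in both reporter contrasts and from 0 to 3 in marker-low cells, and higher calls there from 0 to 1; the cause of these shifts was not tested. Over all genes, calls ranged from 37 to 1386 in HM against HZ (271 as reported), 0 to 920 in Ngn3Cre against HZ (62), 0 to 297 with stage (0), 1265 to 3795 between classes (2507) and 2 to 271 in marker-low cells (27), the highest with DESeq2 except in marker-low cells. Scaling by RLE moved the median of all genes by 0.023 or less in these comparisons. Markers counted from 10 CPM could not be fitted in either class-based comparison, nor with the cut at 4 in marker-low cells. No paired analysis was possible because replicate numbers in the labels only number cells and tie none together; the class comparison had pool, and the reporter contrasts stage, as a term instead. With 3 pools in the class comparison and few cells per ligand, secreted FGFs were mostly below what these depths can test.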

Other observations

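Beside the cells with Fgf3 and Fgf10, 2 single cells carried several signal genes at once. In HZ at 21 somites, 1 cell of 1142510 reads and 6617 genes had Fgf3 at 110 CPM, Fgf4 at 102 CPM and Fgf15 at 98.9 CPM, and it gave 88.1%, 100% and 100% of the reads of these genes in its pool. It had Epcam and Cldn6 among the 8 endoderm epithelium markers, Sox9 among the pancreatic progenitor markers and none of the 10 endocrine markers at 50 CPM or more. In HM at 18 somites, 1 cell of 534921 reads and 5587 genes had Nog at 351 CPM, Fgf8 at 198 CPM, Fgf12 at 87.9 CPM and Bmp3 at 61.7 CPM, and it gave 100%, 97.2%, 100% and 100% of the reads of these genes in its pool. It had Foxa1, Foxa2 and Sox9 at 50 CPM or more, none of the endocrine markers and no Epcam at that level. Both cells were chosen after their values were seen, and each is 1 cell.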
